A study of Mus musculus with 12 samples.

Results

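The genes described here carry peptides onto MHC class I molecules, and they were followed over 4 groups of sorted mouse B cells. The set holds 9 genes of 18193 measured on the arrays: B2m, Tap1, Tap2, Tapbp, Psmb8, Psmb9, Psmb10, Nlrc5 and Erap1. They were chosen by name for their role in the pathway, with earlier results of these data known. Every probe set whose single gene symbol is one of them was used, 16 in all. RNA of female C57BL/6 mice was hybridised to 12 Affymetrix arrays, 3 in each group. Mice older than 15 months gave spleen sorts of Age associated B cells, called ABC here, and of Follicular B cells, called FO. B1 cells, which the sample titles call B1a, came from the peritoneal cavity of mice older than 15 months (old B1) and of mice 8 weeks old (young B1). No transgene, deletion or agent is named for any group, and the surface markers of the sort are not stated. Nor do the labels say whether the 3 replicates of a group came from different animals. The p-values therefore rest on the spread between these samples alone, which may be technical.

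Nearly all cells show fragments of their own proteins on MHC class I. The proteasome cuts the proteins, and its interferon-inducible catalytic subunits, which together form the immunoproteasome, cut in a way that favours class I peptides. The peptides cross into the endoplasmic reticulum through a transporter made of Tap1 and Tap2, are trimmed by aminopeptidases and are loaded, with the help of tapasin, onto a heavy chain paired with beta-2 microglobulin. Nlrc5 acts on the promoters of many of these genes and is often called the class I transactivator. In B cells the pathway displays viral and self peptides to CD8 T cells, next to the class II pathway used for help from CD4 T cells.

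Tap1 and Psmb9 lie head to head within the MHC on chromosome 17, and the stretch between their start sites is shown because it serves as the promoter region of both. In the RefSeq annotation of GRCm38.p6 their start sites are 226 bases apart. The region upstream of B2m is shown beside it because B2m differed little in the comparisons that follow. Its largest difference was -0.07, and only that of Tapbp was smaller in size (-0.04). Both stretches are read on the plus strand, which is the strand of Tap1 and of B2m, at chr17:34187331-34187555 and chr2:122147437-122147686. Capitals mark matches on either strand to 6 short motifs: AANNGAAA (the core of sites for interferon regulatory factors), TTCNNNGAA (a STAT-type site), GGNNTTTCC (a site of NF-kappaB type), CCAAT (the Y box), TGACG (a site like the X2 box) and GGGCGG (the GC box).
Tap1 and Psmb9: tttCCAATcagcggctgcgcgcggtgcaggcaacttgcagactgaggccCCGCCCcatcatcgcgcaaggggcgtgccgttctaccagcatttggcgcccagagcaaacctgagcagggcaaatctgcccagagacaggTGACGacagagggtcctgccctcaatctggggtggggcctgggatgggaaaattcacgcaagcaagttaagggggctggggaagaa
B2m: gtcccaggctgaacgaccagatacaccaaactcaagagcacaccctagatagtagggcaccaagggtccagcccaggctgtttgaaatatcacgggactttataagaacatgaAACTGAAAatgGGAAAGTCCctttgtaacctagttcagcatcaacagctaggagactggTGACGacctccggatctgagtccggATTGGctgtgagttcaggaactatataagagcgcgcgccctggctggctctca

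The stretch between Tap1 and Psmb9 held 3 matches, to the Y box, the GC box and the X2-like motif. The B2m stretch held 4, to the interferon regulatory factor core, the NF-kappaB-like motif, the X2-like motif and the Y box, and none of its matches overlapped. Windows of 300 bases around the start site (250 before and 50 after) were at hand for 7 of the 9 members. The window of Psmb10 held none of the motifs, and whether the annotated start sites are those used in these cells was not tested. Among 32851 such windows of all genes, the X2-like motif was present in 20.8% and in 3 of the 7 members' windows (B2m, Tap1 and Psmb9, the last of which overlaps that of Tap1 by 275 bases). The Y box was present in 37.4% of all windows and in 4 of 7, the GC box in 35.7% and in 4 of 7, and the interferon regulatory factor core in 23.9% and in 2 of 7. The X2-like, Y box and GC box matches of Tap1 and Psmb9 are the same bases read from opposite strands, so each of those counts holds a shared site counted for both genes. The NF-kappaB-like motif was present in 5.82% of all windows and the STAT-type motif in 8.3%, each in 1 of 7. A match describes these letters and shows no binding.

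The deposited values were taken as intensities on a linear scale from their range (up to 22067.8), since no label states the scale, and all levels here are their log2. The median intensity ran from 44.01 to 49.2 over the 12 arrays. In 2 arrays, old B1 replicate 3 and old FO replicate 2, the 75th percentile was lower (346 and 378) than in the other 10 (400.1 to 412). Where a gene has several probe sets, the one with the highest mean stands for it. The 6 measured B cell markers, Cd79a, Cd79b and Ms4a1 among them, summed to between 41690 and 46353 on every array, a sum led by the brightest of them. By the test used here Cd22 and Pax5 were lower in old B1 than in FO, and Blk was higher. The 3 ABC markers (Tbx21, Itgax and Itgam) summed to 5644 or more on ABC arrays and to 472 or less on all others, and the 3 follicular markers (Fcer2a, Cr2 and Vpreb3) were highest on FO arrays (11623 to 12774). The 5 B1 markers summed to between 5262 and 6957 on B1 arrays, to between 556 and 936 on FO arrays, and to between 5988 and 6516 on ABC arrays, so this sum does not set B1 cells apart from ABC. On ABC arrays Spn was the brightest of the 5, with a mean log2 of 11.89. By the same test Spn was higher in ABC than in old B1 and Sox5 was lower, with log2 differences of 1.53 and -1.82. Of the 5, 4 had a lower mean in ABC than in old B1. Transcripts listed as markers of other cells were also present. In total intensity the 12 macrophage and monocyte markers summed to between 11649 and 29799 on old B1, 15387 and 26374 on young B1, 15767 and 17638 on ABC and 1053 and 2957 on FO arrays. The 9 neutrophil markers summed to between 20750 and 35211 on ABC arrays, against at most 9971 on FO and 1475 on B1 arrays. The 6 mast cell markers summed to between 1921 and 4519 on old B1, to between 2058 and 9669 on young B1 and to at most 719 on spleen arrays. The 6 dendritic cell markers summed to between 653 and 1149 on old B1, 1708 and 2464 on young B1, 2581 and 2640 on ABC and 2566 and 3741 on FO arrays. Ccr7 was the brightest of them in every group, with a mean log2 of 9.37 in old B1 and 11.44 in FO. The 6 plasma cell markers summed to between 16214 and 18978 on ABC arrays and to between 9451 and 16725 on the others. Irf4 was bright in every group, with means from 12.25 in ABC to 12.76 in young B1. Whether the RNA of Ccr7 and Irf4 came from the sorted B cells themselves was not tested, so these sums do not measure dendritic or plasma cells.

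**Figure D1:**
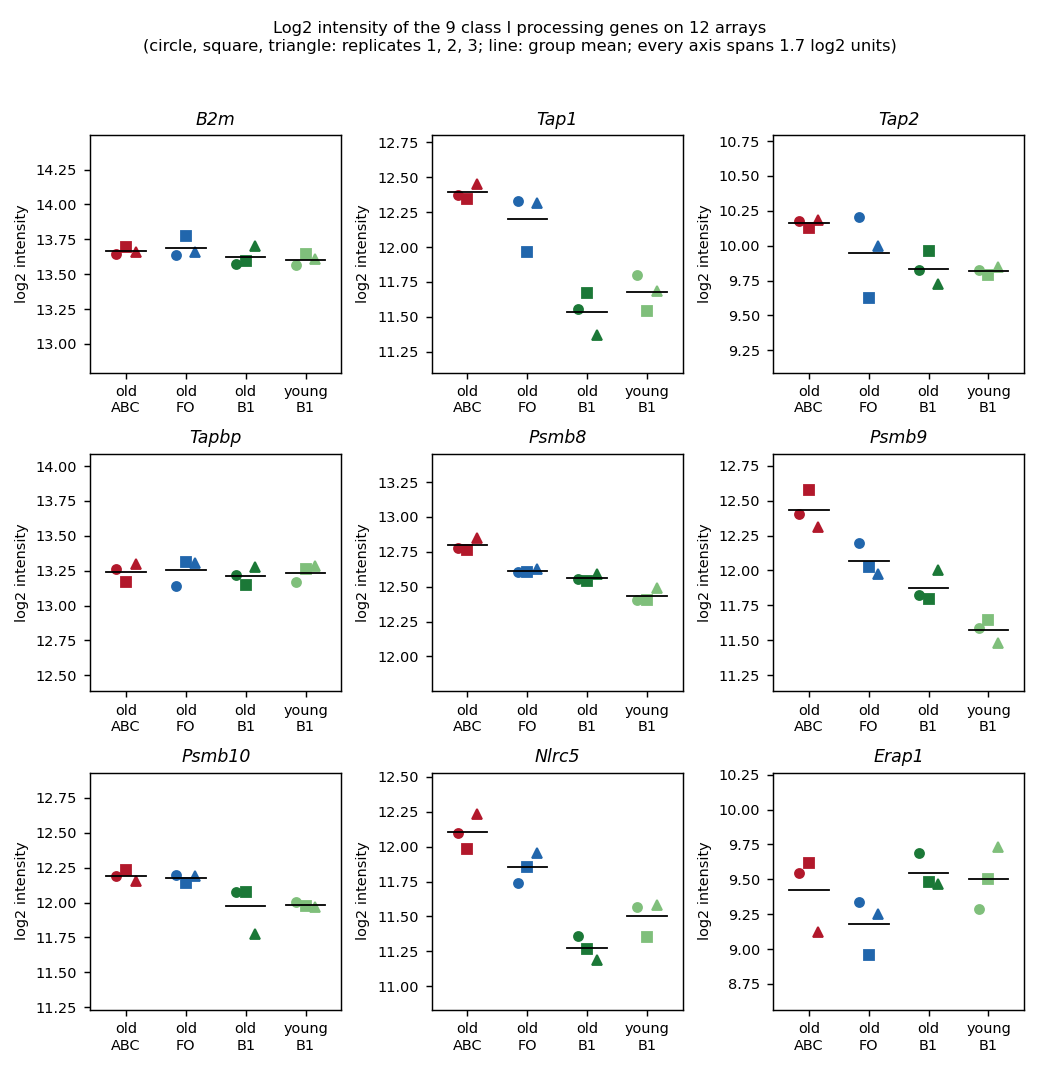
Log2 intensity of each of the 9 genes on the 12 arrays, by group (colour) and replicate (circle, square and triangle for 1, 2 and 3), with the group mean as a line. Each panel spans 1.7 log2 units and is centred on that gene's mean. Tap1 and Nlrc5 are lower on all 6 B1 arrays than on all 6 spleen arrays, Psmb9 is highest on the ABC arrays, and B2m and Tapbp lie at one level in all 4 groups.

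All members gave a signal well above the array median on every array. The probe set of B2m, the light chain of every class I molecule, was brighter than at least 99.7% of all probe sets on each array, and that of Tapbp, which encodes tapasin, than at least 99.4%. The dimmest of the 9, that of Erap1, stayed between the 78.0th and the 83.5th percentile. Brightness depends on the probes as well as on the RNA, so these ranks give no order of abundance between genes. In the 4 comparisons the largest difference of any member was 1.81-fold. When the 4 groups were tested together (limma, F test), 4 members passed at an adjusted p under 0.05: Nlrc5 (adjusted p = 0.00119), Psmb9 (adjusted p = 0.00138), Tap1 (adjusted p = 0.00163) and Psmb8 (adjusted p = 0.0359). The same test called 20.5% of all genes.

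The transporter subunit Tap1 was high in the spleen groups and lower in B1 cells. Its log2 intensity was 12.37, 12.35 and 12.45 in ABC, 12.33, 11.97 and 12.32 in FO, 11.56, 11.67 and 11.37 in old B1 and 11.80, 11.54 and 11.68 in young B1 (replicates 1 to 3). Every ABC array lay above every FO array by a margin smaller than the spread within FO, where replicate 2 was low, and old and young B1 overlapped. Tap1 was higher in ABC than in old B1 by 0.86 ± 0.13 on the log2 scale (± is the standard error of the limma fit, n = 3 arrays a group), or 1.81-fold (adjusted p = 0.00144). It was lower in old B1 than in FO by a log2 difference of -0.67 ± 0.13 (adjusted p = 0.00475). ABC and FO differed by 0.19 ± 0.13 and were not called (adjusted p = 0.499), and without old FO replicate 2 the difference was 0.07.

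Nlrc5, the class I transactivator, followed the same order. Its log2 intensity was 12.10, 11.98 and 12.23 in ABC, 11.74, 11.86 and 11.96 in FO, 11.36, 11.26 and 11.19 in old B1 and 11.57, 11.35 and 11.58 in young B1. The ranges of ABC and FO did not overlap, all B1 arrays lay below both, and old and young B1 overlapped. Nlrc5 was higher in ABC than in old B1 by 0.83 ± 0.11 (1.78-fold, adjusted p = 6.5e-04) and lower in old B1 than in FO, with a difference of -0.58 ± 0.11 (adjusted p = 0.00448). The difference between ABC and FO, 0.25 ± 0.11, did not pass (adjusted p = 0.225).

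Psmb9, a catalytic subunit of the immunoproteasome, showed a stepwise order in which ABC stood highest. Its log2 intensity was 12.40, 12.58 and 12.31 in ABC, 12.20, 12.02 and 11.98 in FO, 11.82, 11.80 and 11.9999 in old B1 and 11.58, 11.65 and 11.48 in young B1. The ABC arrays lay above all others and the young B1 arrays below all others, while FO and old B1 overlapped. Psmb9 was higher in ABC than in old B1 by 0.56 ± 0.11 (1.47-fold, adjusted p = 0.00709). In a fit of those 2 groups alone the call was lost, at adjusted p = 0.0663. Against FO the difference was 0.36 ± 0.11 and was not called (adjusted p = 0.0663), but it passed when old B1 replicate 3 was left out (adjusted p = 0.0355).

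Psmb8, another of the inducible catalytic subunits, had the smallest standard error of the 9. It measured 12.77, 12.76 and 12.85 in ABC, 12.61, 12.60 and 12.62 in FO, 12.56, 12.54 and 12.59 in old B1 and 12.41, 12.40 and 12.49 in young B1. No neighbouring groups in this order overlapped, yet the steps were small and none was called in a comparison of 2 groups. ABC and young B1, the ends of this order, were not compared. The largest of the 4 differences tested, ABC over old B1, was 0.23 ± 0.08 (adjusted p = 0.0823). It was called with a limma trend (adjusted p = 0.00454), with array weights (adjusted p = 0.0372) and with 16 added before log2 (adjusted p = 0.0132).

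Psmb10, the third inducible subunit, ranged from 12.14 to 12.23 over the 6 spleen arrays and from 11.78 to 12.08 over the 6 B1 arrays. Old B1 replicate 3 was its lowest array. It differed by 0.22 ± 0.10 between ABC and old B1 (adjusted p = 0.197) and by -0.20 ± 0.10 between old B1 and FO (adjusted p = 0.211). Without old B1 replicate 3 these became 0.12 and -0.10. Tap2, the partner of Tap1, measured 10.13 to 10.18 in ABC, 9.63 to 10.21 in FO, 9.72 to 9.96 in old B1 and 9.79 to 9.85 in young B1. Its ABC arrays lay above all B1 arrays and within the range of FO, and the difference from old B1 was 0.33 ± 0.14 (adjusted p = 0.165).

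B2m and Tapbp showed no difference that these arrays could resolve. B2m measured 13.64 to 13.69 in ABC, 13.64 to 13.78 in FO, 13.57 to 13.70 in old B1 and 13.56 to 13.64 in young B1. For Tapbp the ranges were 13.17 to 13.30, 13.14 to 13.32, 13.15 to 13.28 and 13.17 to 13.28 in the same order. All 4 ranges overlap for each gene. The 95% intervals of the limma fit for the 4 differences lay between -0.25 and 0.23 for B2m and between -0.24 and 0.23 for Tapbp, so changes within those bounds are not set aside. Both genes lie near the top of the scale (B2m 12101 to 14033 and Tapbp 9048 to 10194 in intensity, with array maxima from 19395 to 22067.8), and whether the signal is compressed there was not tested.

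Erap1, the aminopeptidase that trims peptides in the endoplasmic reticulum, had another order than the rest. It measured 9.47 to 9.69 in old B1, 9.28 to 9.73 in young B1, 9.12 to 9.61 in ABC and 8.96 to 9.34 in FO. Old B1 lay above FO without overlap, by 0.36 ± 0.17, and the difference was not called (adjusted p = 0.185). Its interval ran from -0.01 to 0.74.

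**Figure D2:**
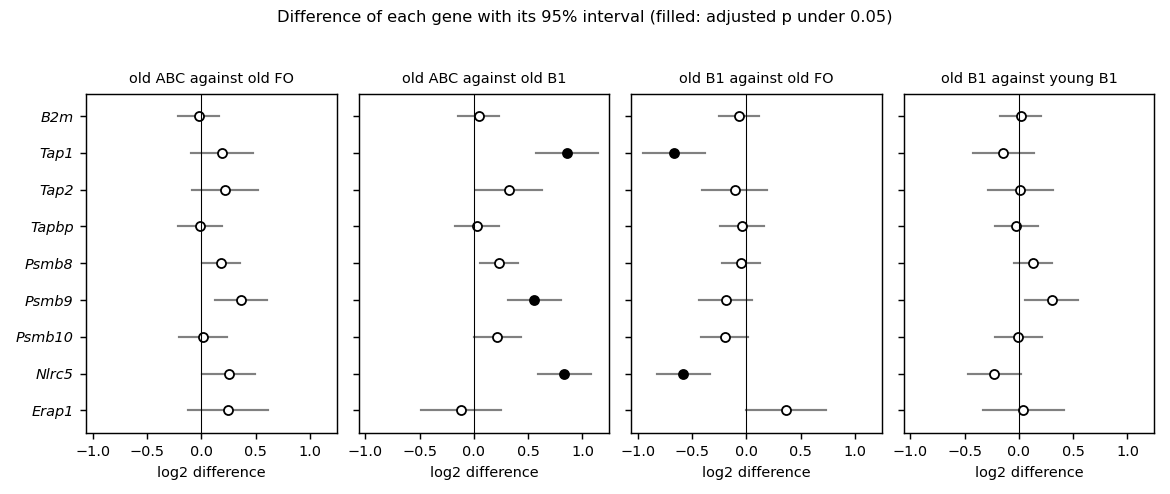
Log2 difference of each gene in the 4 comparisons, first-named group minus the other, with the 95% interval of the limma fit. Filled points passed an adjusted p under 0.05. The filled points are Tap1, Psmb9 and Nlrc5 in ABC against old B1, and Tap1 and Nlrc5 in old B1 against FO.

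Old ABC against old FO asks whether age associated B cells differ in this pathway from follicular cells of the aged spleen. Of the 9 members 0 were called, against 9.96% of all genes (7.12% higher and 2.84% lower). At an unadjusted p under 0.05 limma gave 3, Psmb8, Psmb9 and Nlrc5, all higher in ABC. The share of all genes at that unadjusted threshold was not counted, so no such count, here or below, can be set against a background. The median difference of the members was 0.19, against -0.03 over all genes. The groups did not overlap in 4 of 9 members and in 28.8% of all genes. Other settings of the fit called up to 2 members, Psmb9 and Psmb8, both higher in ABC. Of the other cells' markers, 9 of 12 macrophage and monocyte, 6 of 9 neutrophil, 3 of 6 plasma cell, 2 of 6 dendritic cell and 2 of 6 mast cell markers were called higher in ABC than in FO, and their part in these values was not tested. Of the NK cell, T cell and erythroid lists at most 2 markers were called in any of the 4 comparisons.

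Old ABC against old B1 sets ABC beside peritoneal B1 cells of the same age. Of the 9 members 3 were higher in ABC (Tap1, Nlrc5 and Psmb9), 0 were lower and 6 were not called. Over all genes 12.8% were called, 7.4% higher and 5.43% lower. The members' median difference was 0.23, against 0.02 over all genes. The groups did not overlap in 6 of 9 members and in 28.8% of all genes. Old B1 against old FO gave 2 lower members (Tap1 and Nlrc5), 0 higher and 7 not called, where 16.4% of all genes were called, 8.4% higher and 8.02% lower. The members' median there was -0.11, against -0.04 over all genes, and 5 of 9 did not overlap, nor did 28.9% of all genes. These comparisons share the old B1 arrays, and in both the organ cannot be told apart from the cell type. In bulk RNA, fewer cells that make a transcript and less RNA per cell cannot be told apart either. The macrophage and monocyte markers named above move with old B1 against FO (12 of 12 called higher in old B1), and the neutrophil markers with ABC against old B1 (9 of 9 called higher in ABC). The mast cell markers do so in both (5 of 6 called higher in old B1 than in FO, 4 of 6 lower in ABC than in old B1). Of 6 dendritic cell markers 3 were called higher in ABC than in old B1 and 2 lower in old B1 than in FO, Ccr7 in both, and of 6 plasma cell markers 3 were called higher in ABC than in old B1. The B cell genes Cd22 and Pax5 were called in both as well, higher in ABC by 0.75 ± 0.11 and 1.35 ± 0.34 and lower in old B1 than in FO at -0.59 ± 0.11 and -1.30 ± 0.34. Blk went the other way. It was called higher in old B1 than in FO (0.42 ± 0.11) and was not called in ABC against old B1 (-0.26 ± 0.11). Cd79a, Cd79b and Ms4a1 were called in neither. The part of all these markers in the members' differences was not tested. Without the 2 arrays of lower 75th percentile the calls were 3 and 2 again, with Tap1 at 0.78 (adjusted p = 7.3e-04) between ABC and old B1 and at -0.71 (adjusted p = 0.00159) between old B1 and FO, by limma. The call of Tap1 in old B1 against FO was lost in a fit of those groups alone (adjusted p = 0.0591).

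Old against young B1 is the comparison of age. Of the 9 members 0 were called by limma, and 0.291% of all genes were (0.159% higher and 0.132% lower). At an unadjusted p under 0.05 there was 1, Psmb9, with a difference of 0.30 ± 0.11 toward old mice (adjusted p = 0.529) and no overlap of the groups. Psmb8 did not overlap either, with 0.13 ± 0.08 (adjusted p = 0.706). Over all genes 13.9% did not overlap. The median of the members was 0.01. For Tap1 the 95% interval ran from -0.43 to 0.14, and for Nlrc5, at -0.23 ± 0.11, from -0.47 to 0.01, so neither sets a difference of 0 aside. Among the markers only Ccr7 was called, lower in old B1 at -1.20 ± 0.19 (adjusted p = 0.0307, limma). The 3 follicular markers summed to between 137 and 555 on old B1 and to between 796 and 1006 on young B1 arrays, with none called. The part of these markers in the members' values was not tested.

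Tap1 and Psmb9, which share the stretch printed above, were set against each other within each array. This was chosen after their values had been seen. The log2 value of Tap1 minus that of Psmb9 was -0.03, -0.23 and 0.14 in ABC, 0.13, -0.06 and 0.34 in FO, -0.26, -0.13 and -0.63 in old B1 and 0.22, -0.11 and 0.20 in young B1. All old B1 arrays lay below all FO and all young B1 arrays, with old B1 replicate 3 the lowest. The mean difference was -0.48 between old B1 and FO and -0.45 between old and young B1. Each had a two-sided exact permutation p = 0.1, the smallest that 3 against 3 arrays can give, and adjusted p = 0.2 over the 4 comparisons.

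**Figure D3:**
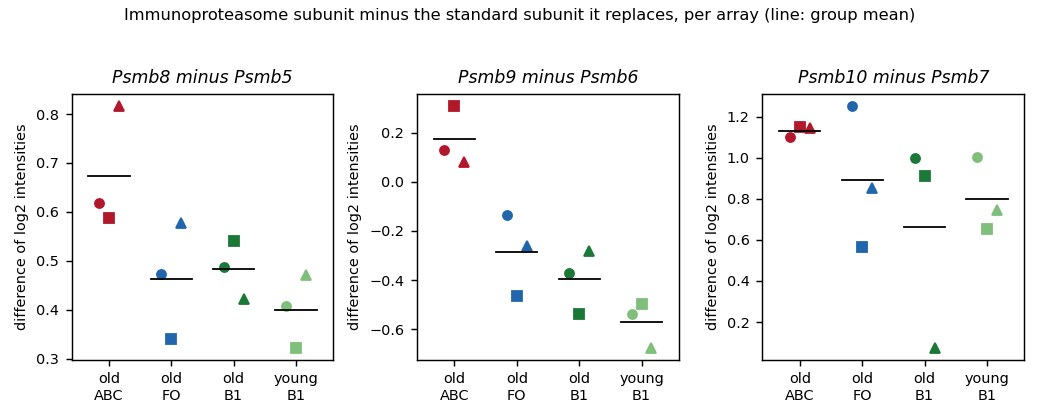
Log2 intensity of each immunoproteasome subunit minus that of the standard subunit whose place it takes, on each array (points) with the group mean (line). The ABC arrays lie above all others for Psmb8 minus Psmb5 and for Psmb9 minus Psmb6, and old B1 replicate 3 is the low point for Psmb10 minus Psmb7.

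Each inducible subunit takes the place of a standard one: Psmb8 of Psmb5, Psmb9 of Psmb6 and Psmb10 of Psmb7. None of the 3 standard subunits was called in any comparison, with differences between -0.25 and 0.13. The difference Psmb9 minus Psmb6 within an array cancels any scaling of that array, and it was 0.13, 0.31 and 0.08 in ABC, -0.14, -0.46 and -0.26 in FO, -0.37, -0.54 and -0.28 in old B1 and -0.54, -0.50 and -0.67 in young B1. The ABC arrays lay above 0 and all other arrays below it, although the position of 0 itself depends on the probes. ABC exceeded FO by 0.46 and old B1 by 0.57, each with exact permutation p = 0.1, the smallest possible, and adjusted p = 0.24 over 12 tests. For Psmb8 minus Psmb5, ABC (0.59 to 0.82) exceeded FO (0.34 to 0.58) by 0.21 and old B1 (0.42 to 0.54) by 0.19, without overlap and with the same p. For Psmb10 minus Psmb7, ABC (1.10 to 1.15) overlapped FO (0.57 to 1.25) and lay above old B1, where replicate 3 was 0.08 and the others 0.91 and 0.998.

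Members with more than 1 probe set were compared probe set by probe set in a fit of all 45037. The other B2m probe set, at the mean percentile 99.5, gave differences between -0.09 and 0.08. Tap1 has 3 further probe sets, and none of them was called. They are dim, at mean percentiles of 1.7, 8.0 and 55.4, against 96.8 for the one used. Averaging all 4 brought the Tap1 difference between old B1 and FO to -0.22 (adjusted p = 0.125) and that between ABC and old B1 to 0.31 (adjusted p = 0.0434, limma). The further probe set of Erap1, at the mean percentile 63.0, put old B1 below FO by a difference of -0.08 ± 0.15, against the 0.36 of the brighter one, so the order of Erap1 rests on 1 probe set. The further ones of Psmb8 and Tapbp, at 46.8 and 65.2, were not called either. Tap2, Psmb9, Psmb10 and Nlrc5 have only 1 probe set each, so their values could not be compared in this way.

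**Figure D4:**
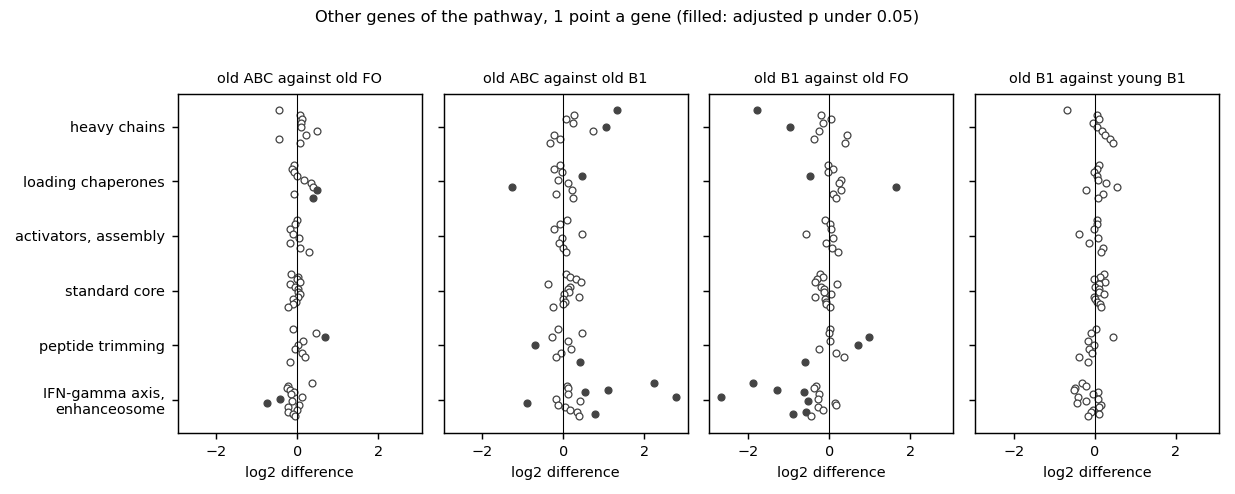
Log2 differences of 66 other genes of the pathway in 6 lists, 1 point a gene, in the 4 comparisons (first-named group minus the other). Filled points passed an adjusted p under 0.05. In old B1 against FO the filled points farthest from 0 are Irf8 and Ciita of the interferon gamma list, Cd1d1 of the heavy chains and Pdia4 of the chaperones.

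The rest of the pathway was described by 6 lists of 80 genes, of which 66 have a probe set of their own. In ABC against FO 5 of the 66 were called (3 higher, 2 lower), in ABC against old B1 12 (9 higher, 3 lower), in old B1 against FO 14 (3 higher, 11 lower) and in old against young B1 0 by limma (6 at an unadjusted p under 0.05). Over all genes the same fits called 9.96%, 12.8%, 16.4% and 0.291% at an adjusted p under 0.05. Their median differences were -0.0028, 0.10, -0.10 and 0.05. The 5 calls between ABC and FO became 2 without old ABC replicate 2, and 3 without old ABC replicate 1, old ABC replicate 3 or old FO replicate 3.

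Among heavy chains 9 of 19 listed genes had a probe set of their own, and the others were not analysed here. The classical chains H2-K1 and H2-D1, whose own probe sets may still detect each other's RNA, differed between ABC and old B1 by 0.25 ± 0.08 (adjusted p = 0.073) and 0.08 ± 0.10 (adjusted p = 0.656). The chains called were nonclassical, and both were lower in old B1 than in either spleen group. H2-M3, which presents formylated peptides, measured 11.96, 12.06 and 11.75 in ABC, 11.90, 11.86 and 11.73 in FO, 10.80, 10.92 and 10.89 in old B1 and 11.03, 10.86 and 10.57 in young B1. It was higher in ABC than in old B1 by 1.05 ± 0.13 (adjusted p = 4.8e-04) and lower in old B1 than in FO, at -0.96 ± 0.13 (adjusted p = 6.0e-04). Cd1d1, which presents lipids, was higher in ABC than in old B1 by 1.32 ± 0.33 (adjusted p = 0.022) and lower in old B1 than in FO, at -1.78 ± 0.33 (adjusted p = 0.00366). The other 7 were not called in any comparison. Of the 9, 2 were thus called in ABC against old B1 and 2 in old B1 against FO, where 12.8% and 16.4% of all genes were called.

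In the list of interferon gamma signalling and of factors that bind class I promoters, 16 of 17 genes were measured. In old B1 against FO 7 were lower, 0 higher and 9 not called, and in ABC against old B1 5 were higher, 1 lower and 10 not called. Over all genes 8.4% were higher and 8.02% lower in old B1 than in FO. In ABC against old B1 7.4% of all genes were higher and 5.43% lower. Irf8, a lymphoid and myeloid interferon regulatory factor, measured 12.43, 12.51 and 12.48 in ABC, 12.33, 12.40 and 12.36 in FO, 10.05, 9.98 and 9.003 in old B1 and 9.90, 10.41 and 9.99 in young B1. Spleen and B1 arrays stood far apart, with old B1 replicate 3 lowest. Irf8 was higher in ABC than in old B1 by 2.80 ± 0.24 (adjusted p = 4.6e-05) and lower in old B1 than in FO, at -2.68 ± 0.24 (adjusted p = 3.7e-05). Ciita, the class II counterpart of Nlrc5, was lower in old B1 than in FO at -1.89 ± 0.24, Ifngr2, a chain of the interferon gamma receptor, at -1.30 ± 0.12, and Rfxank, part of the complex on the X box, at -0.88 ± 0.13. Rfx5, another part of that complex, stood at -0.57 ± 0.10, Irf1, an interferon-induced activator, at -0.61 ± 0.11, and Jak1, a receptor kinase, at -0.52 ± 0.13. In ABC against old B1, Ciita (2.24 ± 0.24), Ifngr2 (1.11 ± 0.12), Rfxank (0.77 ± 0.13) and Irf1 (0.54 ± 0.11) were higher, and Jak2, another receptor kinase, was lower (-0.90 ± 0.21). Between ABC and FO the list had 2 calls, both lower in ABC: Irf9, at -0.44 ± 0.09 (adjusted p = 0.00921), and Jak2, at -0.76 ± 0.21 (adjusted p = 0.0453). These are 2 of 16 genes, where 9.96% of all genes were called, 7.12% higher and 2.84% lower.

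None of the 14 genes of the standard proteasome core was called in any comparison by limma, and their differences lay between -0.38 and 0.44. The share of all genes called ran from 0.291% in old against young B1 to 16.4% in old B1 against FO. At an unadjusted p under 0.05 there were 3 in ABC against old B1, 3 in old B1 against FO and 0 in the other comparisons. None of the 8 measured genes of proteasome activation and assembly was called either, with 1 at an unadjusted p under 0.05 in each of those comparisons and 0 in the others. Psme1, a subunit of the interferon-inducible activator, differed by -0.06 ± 0.09 between ABC and FO.

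Of 10 chaperones of the loading step, 2 were called in each of ABC against FO, ABC against old B1 and old B1 against FO. Over all genes 9.96%, 12.8% and 16.4% were called there. In ABC against FO Prkcsh (0.50 ± 0.10) and Uggt1 (0.40 ± 0.09), which act on the sugar of new glycoproteins, were higher. Pdia4, a disulfide isomerase, was higher in old B1 than in FO by 1.65 ± 0.22 and was lower in ABC than in old B1 (-1.26 ± 0.22), while Hspa5, the chaperone BiP, was lower in old B1 than in FO (-0.47 ± 0.11) and higher in ABC than in old B1 (0.47 ± 0.11). The chaperones that sit in the loading complex itself were not called in any comparison. Between ABC and FO Calr differed by -0.09 ± 0.11 and Pdia3 by 0.35 ± 0.17.

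Of 9 peptidases, Lap3, a leucine aminopeptidase that interferon gamma induces, was higher in ABC than in FO by 0.70 ± 0.16 (adjusted p = 0.0171) and higher in old B1 than in FO by 0.98 ± 0.16 (adjusted p = 0.00166). Tpp2, a large cytosolic peptidase, was lower in old B1 than in FO (-0.60 ± 0.10) and Npepps, a puromycin-sensitive aminopeptidase, was higher (0.72 ± 0.16). In ABC against old B1 Tpp2 was higher (0.42 ± 0.10) and Npepps lower (-0.69 ± 0.16). Of the 9, 1 was called in ABC against FO, 2 in ABC against old B1 and 3 in old B1 against FO. Over all genes 9.96%, 12.8% and 16.4% were called there. Lap3 had its lowest group mean in FO, as did the brighter probe set of Erap1, which did not pass the test. So did Thop1, Rnpep and Nln, which were not called in any comparison. For Npepps the means of FO (9.44) and ABC (9.47) were nearly level.

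The genes most like the members over the 12 arrays were found from the mean of the members' log2 values, each centred on its own mean. They were Cd276, an immune checkpoint molecule (r = 0.98), Hsd11b1, which makes active glucocorticoid (r = 0.97), Tubgcp5, a gamma-tubulin complex protein (r = 0.97), Chpt1, an enzyme of phosphatidylcholine synthesis (r = 0.97), and Prag1, a pseudokinase (r = 0.96). These r values describe 12 arrays that fall into 4 groups, and they were picked as the highest of all genes searched. Nor did the mean stand for every member. With the mean of the other members, r was 0.77 to 0.89 for Tap1, Tap2, Psmb8, Psmb9, Psmb10 and Nlrc5. It was 0.25 for B2m, -0.006 for Tapbp and -0.31 for Erap1. The amplitude differed: Hsd11b1 was higher in ABC than in old B1 by 4.18 ± 0.19 and Prag1 by 5.02 ± 0.38, against 0.86 at most among the members.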

How the data were processed

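RNA of sorted B cells was measured on 12 arrays in 4 groups of 3. The deposited values were read as linear intensity, normalized by the authors. The submitters' processing notes name RMA and affy, without an order, version or background step. The log2 of each value was fitted in 1 model with 4 group means (limma 3.58.1, R 4.3.3; 8 residual degrees of freedom), with Benjamini-Hochberg adjustment over 18193 genes, and a gene was called at an adjusted p under 0.05. Of 45037 probe sets 34945 carried 1 gene symbol, 932 several and 9160 none, and only the first were named. No filter on dim genes was applied, so all 9 members entered. The number of arrays limits the precision. Within-array differences were tested by exact permutation over arrays. The procedure was tested on simulated data.

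The members, lists, motifs and tests were chosen with earlier results of these data known. The text names all members, up to 4 called genes a pathway list and comparison by p, and the catalytic subunits. H2-K1, H2-D1, Calr, Pdia3, Psme1, Rfx5, Irf1, Jak1 and, against old B1, Jak2 were added after their values were seen. Alternatives were other limma settings, array weights, the compared groups alone, a replicate block, cyclic loess, another scaling, an offset, a filter on dim genes, averaged probe sets, a stricter threshold and left-out arrays. Promoter sequences and positions are from RefSeq (GRCm38.p6). Python 3.11.15 with matplotlib 3.10.9 made the figures.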

Additional observations from a re-analysis of the deposited data

How the results depend on the processing

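Between ABC and FO the count of called members, 0, became 2 with a limma trend or with 16 added before log2 (Psmb8 and Psmb9), and 1 with array weights or cyclic loess (Psmb9). Leaving out single arrays gave 0 to 1, the latter without old B1 replicate 3. In old B1 against FO the count of 2 became 1 in a fit of the compared groups alone and with the mean of probe sets, where Tap1 was lost. The count of 3 in ABC against old B1 ran from 2 (compared groups alone) to 4 over the settings, and the count of 0 in old against young B1 did not move in any. Why the counts moved was not tested. Same-numbered replicates showed no steady likeness (18 same-numbered pairs, correlation of deviations from -0.39 to 0.23, 3 above 0.1). Deviations within groups of 3 arrays cannot show whether samples shared animals. With the replicate block the counts were 0, 3, 2 and 0 in the order ABC against FO, ABC against old B1, old B1 against FO and old against young B1. Of 864 member values under the alternatives, 37 changed sign, and none of those had been called. Between ABC and FO these were B2m at 0.0174, Tapbp at 0.02 and Psmb10 at -0.0036 without the 2 arrays of low 75th percentile, Psmb10 at -0.0171 with the 75th percentile set equal and Tapbp at 0.0077 after cyclic loess. Single arrays left out moved B2m from -0.0525 to 0.0174, Tapbp from -0.066 to 0.0259 and Psmb10 from -0.0042 to 0.0339. Between ABC and old B1 they were B2m at -0.0422 and Tapbp at -0.055 with the 75th percentile set equal and Erap1 at 0.0401 with the mean of probe sets, and single arrays left out moved Tapbp from -0.0026 to 0.0667 and Erap1 from -0.214 to 0.033. Between old B1 and FO they were Tap2 at 0.0087 after cyclic loess, and Tapbp at 0.0112 and Psmb8 at 0.0018 with the 75th percentile set equal, and Tap2 ran from -0.267 to 0.023 with single arrays left out. Between old and young B1, B2m was -0.0221 with array weights, -0.0367 after cyclic loess and -0.0224 without the 2 arrays. Tapbp was 0.0596 with the 75th percentile set equal and 0.0297 with the mean of probe sets. Psmb10 was 0.0857 with array weights, 0.0756 with the 75th percentile set equal and 0.0926 without the 2 arrays. There, leaving out single arrays moved B2m from -0.0224 to 0.0416, Tap2 from -0.0487 to 0.0703, Tapbp from -0.0581 to 0.0097, Psmb10 from -0.0576 to 0.0926 and Erap1 from -0.0699 to 0.154. Since their further probe sets are dimmer, Tap1, Psmb8, Tapbp and Erap1 rest on 1 bright probe set each. Tap2, Psmb9, Psmb10 and Nlrc5 have only 1 probe set.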
